A study of Mus musculus with 2 samples.

Results

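The mitosis genes described here are 41 genes with a known part in cell division, chosen by name and function with earlier results of these data known. All 41 were found among the 32589 genes of the deposited tables. By role they fall into 7 groups: 5 entry kinases and cyclins, 7 chromosome structure genes, 8 kinetochore and checkpoint genes, 4 chromosomal passenger complex genes, 9 spindle genes, 6 cytokinesis genes and 2 genes of the anaphase-promoting complex (APC/C). Their unique molecular identifiers (UMIs, each standing for 1 captured RNA molecule) were compared by cell class and library, as shares of nuclei and summed UMIs at equal depth per nucleus, and gene by gene from all UMIs.

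Nuclei came from the ureters of newborn mice (postnatal day 0). The mutant pool held 14 mice of the genotype Pax2-cre/+;DNp63fl/fl;R26mTmG/+, called DNp63cKO, that is, with cre under Pax2 control, both DNp63 alleles flanked by loxP sites, and a reporter that marks membranes of cells where cre acted. The control pool held 13 mice whose genotype the labels give as wt, and whether those mice had cre or the reporter is not stated. Pax2 is active in the nephric duct, the source of the ureter epithelium. Each pool gave 1 library, so every difference lies between 2 libraries, has no replicate check and carries no test. Intervals in parentheses are exact at 95% and cover counting error only.

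Cells enter mitosis when CDK1 bound to cyclin A or cyclin B becomes active. Condensin and topoisomerase II then shape the chromosomes, spindle microtubules attach to them at kinetochores, and a checkpoint delays their separation until all are attached. The APC/C ends the phase by marking cyclin B for destruction, and the spindle midzone directs the cut between the daughter cells. Transcripts of these genes build up in the G2 and M phases of the cell cycle and are low in resting cells. In layered epithelia, dividing cells lie mainly in the basal and the next layers, and ΔNp63 is known for maintaining basal cells.

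Many genes of this kind are known to carry short promoter motifs: the cell cycle homology region (CHR, TTTGAA or TTCGAA), bound by the DREAM and MuvB complexes, and the CCAAT box, bound by NF-Y. RefSeq promoters of build GRCm38.p6 (the assembly of mm10) matched 35 members by symbol, with 37 start sites. Not matched were Aurkb, Ccna2, Cdca2, Incenp, Smc4 and Tpx2. In the 100 bases before the start, searched on both strands, a CHR lay in 10 of 37 member promoters (27.03%), against 6.13% of all 32851 promoters. CCAAT lay in 24 of 37 (64.9%), against 18.9%, and both motifs lay in 6 (16.2%), against 1.14%. No CHR match overlapped a CCAAT match in a member promoter. A match describes the sequence and shows no binding. The 6 windows below are each 100 bases long and written 5′ to 3′ on the gene's strand. They show a CHR close to the start together with CCAAT (Top2a, Kif11), CCAAT boxes alone (Ccnb2, Ttk, Hmmr) and a distant CHR alone (Mki67). Not shown are a CHR close to the start without CCAAT (Kif15, Ncapg, Ncapg2) and windows with neither motif (Smc2 and Knl1 among others). The windows shown were picked after the motifs were counted, and capitals mark the CHR and CCAAT matches (TTCAAA and ATTGG where the match lies on the other strand).
Ccnb2 (chr9:70421555-70421654, minus strand): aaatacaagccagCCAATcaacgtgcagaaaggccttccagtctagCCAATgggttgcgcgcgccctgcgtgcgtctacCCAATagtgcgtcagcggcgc
Top2a (chr11:99024190-99024289, minus strand): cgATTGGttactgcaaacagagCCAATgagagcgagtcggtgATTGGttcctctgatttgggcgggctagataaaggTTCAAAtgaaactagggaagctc
Mki67 (chr7:135716380-135716479, minus strand): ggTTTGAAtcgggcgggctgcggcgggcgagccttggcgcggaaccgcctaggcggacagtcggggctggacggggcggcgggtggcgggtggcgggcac
Ttk (chr9:83834589-83834688, plus strand): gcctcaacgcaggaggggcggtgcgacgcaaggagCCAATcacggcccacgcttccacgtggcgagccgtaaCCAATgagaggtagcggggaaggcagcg
Kif11 (chr19:37376282-37376381, plus strand): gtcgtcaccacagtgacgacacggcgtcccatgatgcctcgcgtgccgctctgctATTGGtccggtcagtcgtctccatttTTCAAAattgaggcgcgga
Hmmr (chr11:40733438-40733537, minus strand): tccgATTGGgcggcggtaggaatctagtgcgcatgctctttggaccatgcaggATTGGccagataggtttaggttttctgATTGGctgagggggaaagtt

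The libraries held 5528 nuclei with 9859451 UMIs (DNp63cKO, median 1298 UMIs per nucleus) and 9062 nuclei with 16063644 UMIs (control, median 1124), and 58 cell barcodes occurred in both. After filtering, 5188 and 8438 nuclei were clustered without 159 cell cycle genes and named from marker lists. Urothelium-like nuclei, the epithelial lining, formed clusters of basal layer character (10 and 15, called basal-like), superficial character (2, 3 and 17) and neither (7, 11 and 12, called intermediate). Cluster 2, with 1079 DNp63cKO and 107 control nuclei, and cluster 7, with 160 and 1074, had no urothelial marker among their 10 leading genes but 1 of the collecting duct list (Scnn1b and Aqp3), and cluster 2 also had Msln of the mesothelium list. Clusters 3, 11, 12, 15 and 17 had no urothelial marker among their leading genes either, and none of another class. Only cluster 10 had such markers there, 5 of them. In clusters 2, 7, 12 (47 and 645 nuclei) and 17 (46 and 566) most nuclei came from 1 library. The same held, less strongly, for clusters 3 (177 and 671), 11 (209 and 1024) and 15 (76 and 300). All these clusters cannot be told apart from an effect of the library. Values of the basal-like, intermediate and superficial groups, and of the pooled urothelium, which hold these clusters, therefore stand beside values by numbered cluster or by uroplakin level. Although the members were left out of the clustering, Brca1, Neil3 and Polq, known from DNA repair, and the member Kif15 were among the leading genes of cluster 11, and the members Mki67, Cdca2 and Cenpf among those of cluster 15. Cluster 1 of smooth muscle-like nuclei had 3 haemoglobin genes among its leading 10. Uroplakin RNA, which fibroblasts should lack, stood in fibroblast-like nuclei at 39.5% (DNp63cKO) and 28.01% (control) of its level over the whole library, a measure of free RNA. Trp63, the targeted gene, stood in urothelium-like nuclei at 138 in DNp63cKO and 198 in control, in CPM (a gene's UMIs scaled to a common total per class and library). Since its counts join all isoforms and exons, they check nothing about the deletion.

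In basal-like nuclei the mitosis genes were more often seen in DNp63cKO than in control. A nucleus was called mitosis-high where, among 700 UMIs drawn from it at random, at least 3 different members had a UMI (shallower nuclei were left out, 18 and 100 of the basal-like ones). Mitosis-high nuclei made up 30.6% (151 of 493 nuclei; 26.6 to 34.9%) of basal-like nuclei in DNp63cKO and 19.2% (181 of 944 nuclei; 16.7 to 21.8%) in control. Without thinning the shares with 3 or more members were 47.9% and 33.8%, at median depths of 1541 and 1396 UMIs. The class is a range along a count and no cell type: 55 and 101 basal-like nuclei had 2 members and 34 and 50 had exactly 3. At the far end, 18.9% and 10.3% had 5 or more members, up to 14 and 16 in a nucleus. Summed over nuclei, the log2 ratio of member UMIs (DNp63cKO over control) was 0.60 (0.49 to 0.70). Such intervals are too narrow, since member UMIs come clustered in a few nuclei.

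In the larger classes outside the epithelium, thinned shares in DNp63cKO were below those of control in the draw reported here, with overlapping intervals. Another random draw kept this order. Its smooth muscle-like shares lay further apart, at 17.2% in DNp63cKO and 22.5% in control, and no interval is given for that draw. At 500 UMIs per nucleus the smooth muscle-like share stayed below control (11.6% and 14.6%). The fibroblast-like (6.31% and 6.27%) and endothelium-like shares (10.9% and 10.7%) did not. Smooth muscle-like nuclei were mitosis-high in 18.2% (226 of 1239 nuclei; 16.1 to 20.5%) in DNp63cKO and 20.5% (290 of 1414 nuclei; 18.4 to 22.7%) in control, with unthinned shares of 38.3% and 37.9% and a log2 ratio of summed member UMIs of -0.23 (-0.32 to -0.15). This ratio was -0.53 in cluster 9, whose leading genes include Ryr3 and Dmd, against -0.079 and -0.12 in clusters 1 and 6. Fibroblast-like nuclei stood at 7.87% (57 of 724 nuclei; 6.02 to 10.1%) and 9.86% (55 of 558 nuclei; 7.51 to 12.6%), with intervals that overlap, unthinned shares of 16.6% and 12.7% and a summed log2 ratio of -0.033 (-0.20 to 0.13). In endothelium-like nuclei the shares were 9.55% (19 of 199 nuclei; 5.85 to 14.5%) and 17.04% (38 of 223 nuclei; 12.3 to 22.6%), 21.4% and 23.5% unthinned, and the summed log2 ratio was -0.41 (-0.66 to -0.16). That ratio was -0.017 at 500 UMIs per nucleus, where 276 and 328 nuclei were deep enough, and -0.29 at 1000 UMIs (133 and 138 nuclei). The size of the endothelial difference thus changed with this setting. Depth, the nuclei included and the draw cannot be told apart here. In control the smooth muscle-like share lay near the basal-like one (20.5% and 19.2%, with overlapping intervals), and in DNp63cKO it lay below (18.2% and 30.6%). The order in control depended on the setting. With 4 or more members the control shares were 12.7% (smooth muscle-like) and 13.9% (basal-like), and at 500 UMIs per nucleus 14.6% and 15.3%. Without thinning, the smooth muscle-like and fibroblast-like shares were no lower in DNp63cKO than in control. Those shares compare unequal depths, since median UMIs were 1203 in DNp63cKO and 970 in control (smooth muscle-like) and 1067 and 834 (fibroblast-like).

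**Figure D1:**
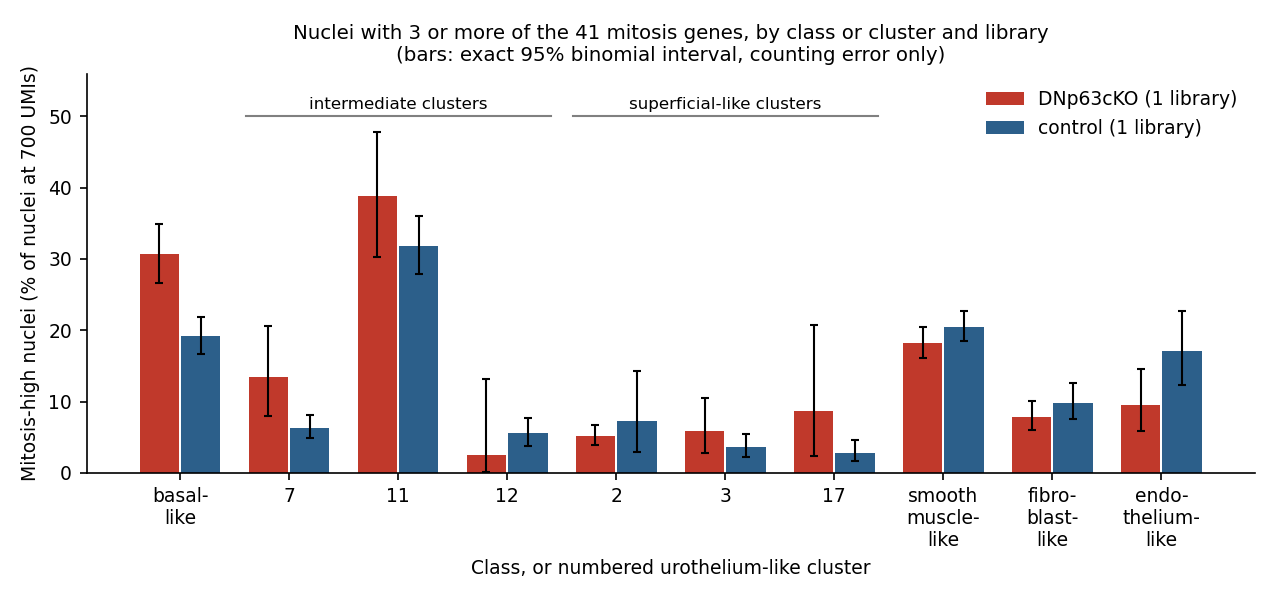
Share of nuclei at 700 UMIs with 3 or more of the 41 mitosis genes (vertical axis, percent) in basal-like nuclei, in the numbered intermediate and superficial-like clusters and in 3 other classes (horizontal axis). Red bars are the DNp63cKO library and blue bars the control library, with exact 95% binomial intervals for counting error; the basal-like bars are apart at 30.6% and 19.2%, and cluster 11 holds the highest shares.

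By numbered cluster the basal-like difference was present in both clusters of that layer: 28.5% against 15.1% in cluster 10, which Krt14, Krt5 and Itgb4 lead, and 44.6% against 31.4% in cluster 15. The intervals of cluster 15 overlapped, from 32.3% upward in DNp63cKO and up to 37.7% in control. The summed log2 ratios there were 0.76 (0.63 to 0.88) and 0.58 (0.36 to 0.79). Among the intermediate clusters, the shares in cluster 7, led by Lypd3 and Shh, were 13.4% against 6.34% (17 of 127 and 58 of 915 nuclei), and the summed log2 ratio was 0.79 (0.53 to 1.03). Cluster 11 had the highest shares of its group, 38.8% against 31.9% with overlapping intervals, at the lowest depth (median 756 and 713 UMIs; 80 of 209 and 484 of 1024 nuclei were too shallow to be thinned), and its summed log2 ratio was 0.32 (0.15 to 0.47). Cluster 12 held 40 DNp63cKO nuclei at this depth, with 1 of them mitosis-high, its shares were 2.50% against 5.56%, and its summed log2 ratio was -0.075 (-0.74 to 0.52). The superficial-like clusters were low in both libraries: 5.17% against 7.22% in cluster 2, 5.85% against 3.63% in cluster 3 and 8.70% against 2.83% in cluster 17, all with overlapping intervals. Pooled by layer, the intermediate shares were 22.97% (68 of 296 nuclei; 18.3 to 28.2%) and 12.9% (262 of 2031 nuclei; 11.5 to 14.4%) and the superficial-like shares 5.39% (69 of 1280 nuclei; 4.22 to 6.77%) and 3.55% (45 of 1268 nuclei; 2.60 to 4.72%), and summed log2 ratios were 0.76 (0.63 to 0.89) and 0.26 (0.12 to 0.40). The superficial-like ratio turned to -0.44 when the estimated free RNA was subtracted. The intermediate nuclei at this depth lay in different clusters in each library: cluster 11 held 129 of 296 in DNp63cKO and 540 of 2031 in control, and cluster 12 held 40 and 576. For the whole urothelium-like class they were 13.9% (288 of 2069 nuclei; 12.5 to 15.5%) and 11.5% (488 of 4243 nuclei; 10.6 to 12.5%), 27.8% and 21.7% unthinned, with a summed log2 ratio of 0.25 (0.18 to 0.32). Cluster 2 alone gave 1063 of the 2069 DNp63cKO and 97 of the 4243 control nuclei of that class, and without it the ratio was 0.85.

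A view that rests on no layer call orders the urothelium-like nuclei by the UMIs of Upk1a, Upk1b, Upk2 and Upk3a, the uroplakins that plate the luminal face of the epithelium. Free RNA can add to low counts, and unequally: fibroblast-like nuclei of DNp63cKO held 2636 CPM of uroplakins, those of control 2071. Log2 ratios in basal-like, intermediate and superficial-like nuclei were -0.34, -0.80 and 0.040 for Upk3a. For Upk1b they were 0.085, 0.021 and -0.48. A stratum may therefore hold different nuclei in each library. Mitosis-high shares were highest where uroplakins were lowest, and the intervals of the libraries were apart or nearly so only below 5 uroplakin UMIs. With no uroplakin UMI among 700 the shares were 33.6% in DNp63cKO and 20.1% in control (37 of 110 and 54 of 269 nuclei). At 1 to 2 UMIs they were 27.5% in DNp63cKO and 19.1% in control, and at 3 to 4 they were 22.5% in DNp63cKO and 12.8% in control. From 5 to 7 UMIs onward they came together: 8.07% in DNp63cKO and 8.02% in control there, 3.90% in DNp63cKO and 3.47% in control at 8 to 12, and 2.71% in DNp63cKO and 2.13% in control at 13 or more. The summed log2 ratio was 0.44 (0.23 to 0.65), 0.44 (0.32 to 0.55) and 0.83 (0.69 to 0.96) in the lower 3 strata and 0.15 (-0.032 to 0.33), 0.18 (-0.042 to 0.40) and 0.004 (-0.30 to 0.31) in the upper 3. Unthinned shares were 39.1% and 26.4% with no uroplakin UMI and 20.5% and 25.1% at 13 or more, where the median depths were 2263 and 3479.5 UMIs. In that top stratum, 31.9% and 30.4% of nuclei still had a UMI of some member, the lowest of these strata and the level to read the others against. Split instead by UMIs of the 15 basal layer genes, the shares were 23.7% in DNp63cKO and 12.03% in control at 3 or more UMIs and 10.3% in DNp63cKO and 11.5% in control at none. Genes of basal cells can themselves differ between the libraries: Krt14, Krt5 and Trp63 had log2 ratios of 2.33, 0.085 and -0.51 in urothelium-like nuclei. This split therefore need not select like nuclei in both libraries.

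**Figure D2:**
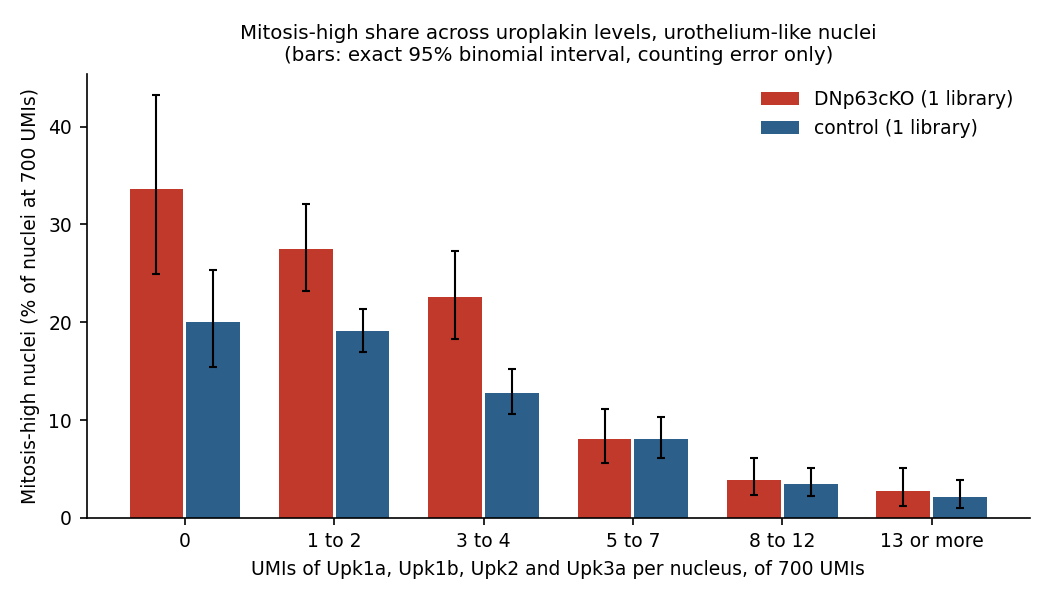
Share of mitosis-high nuclei (vertical axis, percent of urothelium-like nuclei at 700 UMIs) against the summed UMIs of 4 uroplakin genes in the nucleus (horizontal axis). Red is DNp63cKO and blue control, 1 library each, with exact 95% binomial intervals; shares go down from 33.6% and 20.1% at 0 UMIs to 2.71% and 2.13% at 13 or more.

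Sex-linked UMIs were unevenly spread between the libraries, and the epithelial difference was not of 1 size in all nuclei. Among basal-like nuclei, 15.1% in DNp63cKO and 7.95% in control had a UMI of a Y-linked gene and none of Xist, the RNA of the inactive X, while 48.7% and 63.6% had Xist and no Y-linked UMI. In the Xist nuclei the mitosis-high shares were 33.6% (81 of 241 nuclei; 27.7 to 39.96%) in DNp63cKO and 17.2% (103 of 599 nuclei; 14.3 to 20.5%) in control, the summed log2 ratio was 0.76 (0.62 to 0.91) and 41 of 41 measured members were higher in DNp63cKO (47.7% of all genes measured there). In the Y-linked nuclei the shares were 25% (19 of 76 nuclei; 15.8 to 36.3%) in DNp63cKO and 29.5% (23 of 78 nuclei; 19.7 to 40.9%) in control, the ratio was -0.34 (-0.62 to -0.062), and 11 of 23 members with at least 20 UMIs were higher (48.8% of all genes). Nuclei with neither or both signals had shares of 28.98% and 20.6% and a ratio of 0.61 (0.43 to 0.80). Urothelium-like nuclei with 0 to 4 uroplakin UMIs gave the same order: 29.4% (121 of 411 nuclei; 25.1 to 34.1%) in DNp63cKO and 14.9% (211 of 1414 nuclei; 13.1 to 16.9%) in control with Xist, and 18.4% (26 of 141 nuclei; 12.4 to 25.8%) in DNp63cKO and 25.3% (62 of 245 nuclei; 19.99 to 31.2%) in control with Y-linked UMIs, where 7 of 35 measured members were higher in DNp63cKO (48% of all genes). This choice uses no layer call, but it lies within the urothelium-like clusters, basal-like ones included. With 5 or more uroplakin UMIs the shares were 4.20% and 3.73% with Xist and 5.26% and 6.31% with Y-linked UMIs. Smooth muscle-like nuclei had negative ratios in all 3 kinds of nuclei, -0.31 with Y-linked UMIs, -0.19 with Xist and -0.26 with neither or both. Median depths of basal-like nuclei were 1487 and 1531 UMIs with Y-linked UMIs, and 1526 and 1324 with Xist. Unthinned, the shares with 3 or more members were 46.8% and 40.96% with Y-linked UMIs and 46.99% and 29.1% with Xist, so the direction among Y-linked nuclei turned without thinning. It turned likewise in the nuclei with 0 to 4 uroplakin UMIs, where the unthinned shares were 34.8% and 32.7% with Y-linked UMIs and 39.9% and 23.1% with Xist. The number of male and female mice in each pool is not given in the labels, and the part of sex in the difference between the libraries was not tested.

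**Figure D3:**
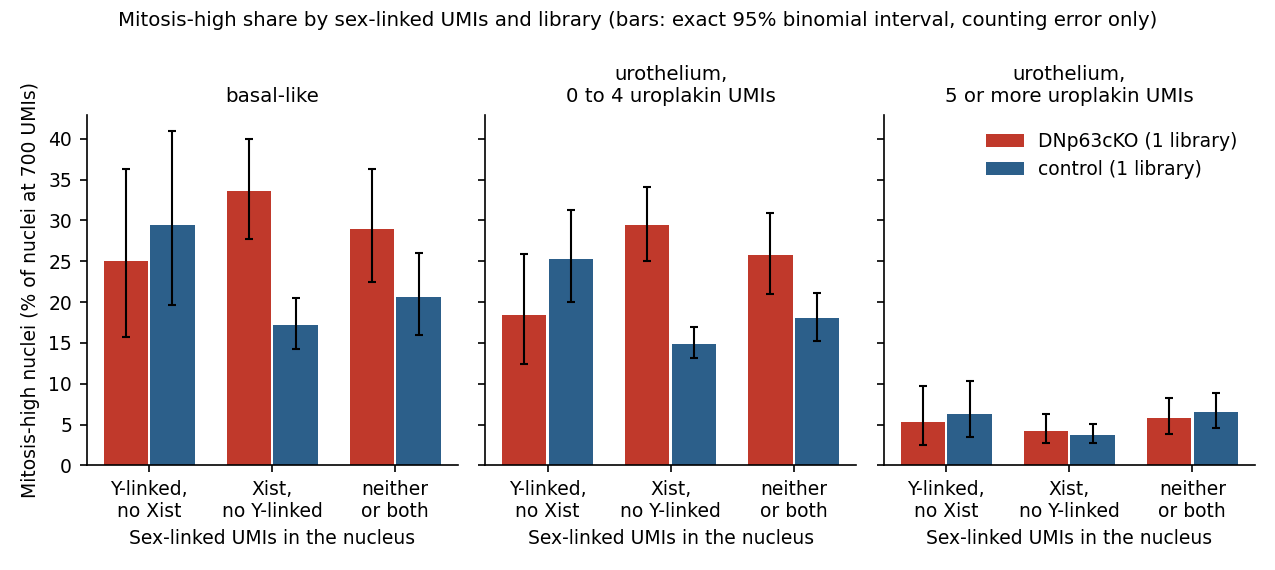
Share of mitosis-high nuclei at 700 UMIs (vertical axis, percent) in basal-like nuclei and in urothelium-like nuclei with 0 to 4 or 5 or more uroplakin UMIs (panels), split by sex-linked UMIs in the nucleus (horizontal axis). Red is DNp63cKO and blue control, with exact 95% binomial intervals; among basal-like nuclei the bars stand at 25% and 29.5% with Y-linked UMIs and at 33.6% and 17.2% with Xist.

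Gene by gene, all 41 members had at least 20 UMIs in basal-like nuclei, and all 41 stood higher in DNp63cKO, where 48.3% of the 11709 genes measured in these nuclei did. Of the members 31 were higher by 1.5-fold or more, against 5.5% of all genes, and none was lower by that much, against 6.14%. Their median log2 ratio was 0.67 (range 0.13 to 1.23), and that of all genes -0.012. With each nucleus at 700 UMIs, 37 of 41 members were higher, against 47.6% of genes, and Smc2, Ncapg2, Bub1b and Racgap1 were not. Log2 ratios of members compare CPM + 5 from all UMIs of the class, and CPM is not scaled by gene length, so levels are set side by side between libraries and not between genes. Since members are seen in the same nuclei, their ratios are not independent of each other.

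The entry kinases and cyclins, which switch mitosis on, were among the most different groups (5 of 5 higher by 1.5-fold or more, median log2 ratio 0.96). Cdk1, the kinase that drives entry into mitosis (ENSMUSG00000019942, chromosome 10, 69335146 to 69352938, minus strand), stood at 173 CPM (interval 148 to 201) in DNp63cKO and 83.4 CPM (71.3 to 97.02) in control, a log2 ratio of 1.01. It was seen in 9.33% and 5.08% of nuclei at 700 UMIs, and 21.9% and 10.4% unthinned. Ccnb2, a B-type cyclin that activates CDK1 (ENSMUSG00000032218, chromosome 9, 70407692 to 70421547, minus strand), stood at 150.3 CPM (interval 127 to 177) in DNp63cKO and 77.95 CPM (66.2 to 91.1) in control (log2 ratio 0.90). Its relative Ccnb1 had the highest ratio of all members, 1.23, at 106 and 42.2 CPM. Ccna2, cyclin A, which acts in S phase and at entry (ENSMUSG00000027715, chromosome 3, 36564865 to 36572150, minus strand; overlapped on the opposite strand by Exosc9), stood at 98.5 CPM (interval 79.7 to 120.4) in DNp63cKO and 58.1 CPM (48.04 to 69.6) in control (log2 ratio 0.71). The polo kinase Plk1 was at 54.9 and 25.8 CPM (0.96).

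Chromosome structure genes split into strongly and weakly different members (3 of 7 higher by 1.5-fold or more, median log2 ratio 0.48). Top2a, the topoisomerase that untangles sister chromatids (ENSMUSG00000020914, chromosome 11, 98992943 to 99024189, minus strand), stood at 362 CPM (interval 325 to 402) in DNp63cKO and 185 CPM (167 to 205) in control (log2 ratio 0.95) and was seen in 16.02% and 10.2% of nuclei at 700 UMIs, and 29.4% and 19.1% unthinned. Mki67, whose protein Ki-67 coats mitotic chromosomes and marks dividing cells (ENSMUSG00000031004, chromosome 7, 135689784 to 135716361, minus strand), stood at 350.4 CPM (interval 314 to 389.8) in DNp63cKO and 185 CPM (167 to 205) in control (log2 ratio 0.90). The condensin subunits differed less. Smc2, in both condensin complexes (ENSMUSG00000028312, chromosome 4, 52439243 to 52488260, plus strand), was nearly level at 181 CPM (interval 156 to 210.4) in DNp63cKO and 163 CPM (146 to 181) in control (log2 ratio 0.15), while its partner Smc4 (ENSMUSG00000034349, chromosome 3, 69004738 to 69034623, plus strand) stood at 209 CPM (interval 182 to 240.3) in DNp63cKO and 149 CPM (133 to 167) in control (0.48). Ncapg2 of condensin II (ENSMUSG00000042029, chromosome 12, 116405402 to 116463731, plus strand) stood at 89.1 CPM (interval 71.3 to 110.1) in DNp63cKO and 72.99 CPM (61.7 to 85.8) in control (0.27), and Ncapg of condensin I was at 42.5 and 21.3 CPM (0.85). Cdca2, which brings a phosphatase to chromatin at mitotic exit, was at 98.5 and 69.5 CPM (0.47).

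The kinetochore and checkpoint genes, which tie chromosomes to the spindle and time their release, were all higher in DNp63cKO (6 of 8 higher by 1.5-fold or more, median log2 ratio 0.64). Cenpf, a large protein of the outer kinetochore (ENSMUSG00000026605, chromosome 1, 189640606 to 189688086, minus strand), stood at 176 CPM (interval 151 to 205) in DNp63cKO and 115 CPM (100.4 to 130.5) in control (log2 ratio 0.60). The scaffold Knl1 had the highest ratio of the group (1.13, 81.9 and 34.8 CPM) and the checkpoint kinase partner Bub1b the lowest (0.27, 50.8 and 41.2 CPM). The motor Cenpe, the microtubule-binding Ndc80 and Nuf2, and the checkpoint kinases Ttk and Bub1 lay between 0.54 (Bub1) and 0.80 (Nuf2). The chromosomal passenger complex corrects faulty attachments (3 of 4 higher by 1.5-fold or more, median log2 ratio 0.59). Aurkb, its kinase (ENSMUSG00000020897, chromosome 11, 69045647 to 69051664, plus strand), stood at 62.2 CPM (interval 47.5 to 80.1) in DNp63cKO and 41.7 CPM (33.3 to 51.6) in control (0.52), and its partners Incenp, Birc5 (survivin) and Cdca8 (borealin) had ratios of 0.59, 0.76 and 0.59.

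Among the spindle genes (6 of 9 higher by 1.5-fold or more, median log2 ratio 0.67), Kif15, a motor that holds spindle poles apart (ENSMUSG00000036768, chromosome 9, 122951046 to 123018733, plus strand), stood at 85.00 CPM (interval 67.6 to 106) in DNp63cKO and 54.6 CPM (44.9 to 65.8) in control (log2 ratio 0.59). Kif11, the main motor of pole separation, was at 103 and 50.1 CPM (0.96), Aspm, a spindle pole protein, at 86.04 and 37.7 CPM (1.09), and Tpx2, which activates Aurora A, at 102 and 51.6 CPM (0.91). Kifc1, a motor that pulls poles together, had the lowest ratio of all members (0.13, 49.8 and 45.2 CPM). It has a near copy, Kifc5b, so reads may be split between them. Kif4, Nusap1, Hmmr and Aurka had ratios of 0.49, 0.40, 0.76 and 0.67. All 6 cytokinesis genes were higher by 1.5-fold or more (median log2 ratio 0.67). Kif23, a motor of the midzone (ENSMUSG00000032254, chromosome 9, 61915905 to 61946774, minus strand), stood at 174 CPM (interval 149 to 203) in DNp63cKO and 107 CPM (93.4 to 123) in control (0.67). Prc1, which bundles midzone microtubules (ENSMUSG00000038943, chromosome 7, 80294450 to 80316259, plus strand; overlapped on the opposite strand by Rccd1), stood at 118 CPM (interval 97.5 to 142) in DNp63cKO and 71.00 CPM (59.8 to 83.6) in control (0.70), and Anln, a scaffold of the contractile ring (ENSMUSG00000036777, chromosome 9, 22332012 to 22389188, minus strand), at 139 CPM (interval 116 to 165) in DNp63cKO and 69.01 CPM (58.02 to 81.5) in control (0.96). Racgap1, Kif20b and Ect2, which act with them at the midzone, had ratios of 0.65, 0.66 and 0.67.

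The 2 APC/C genes were also higher. Ube2c, the ubiquitin-conjugating enzyme that works with the APC/C (ENSMUSG00000001403, chromosome 2, 164769898 to 164778822, plus strand; overlapped on the opposite strand by Tnnc2), stood at 85.00 CPM (interval 67.6 to 106) in DNp63cKO and 35.7 CPM (27.97 to 45.02) in control (log2 ratio 1.14), and Cdc20, its activator, at 69.5 and 34.8 CPM (0.91). The counting of strands is not given in the sources used here, so the values of members overlapped by a gene on the opposite strand (Ccna2, Ncapg, Cdca8, Kif4, Nusap1, Prc1, Cdc20 and Ube2c), and that of Anln, overlapped on its own strand by Gm48646, may hold reads of that gene.

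Across the whole urothelium-like class 38 of 41 members were higher in DNp63cKO (51% of 14907 genes), with 12 by 1.5-fold or more (3.54% of genes), none lower by 1.5-fold (2.88% of genes) and a median log2 ratio of 0.41. At 700 UMIs per nucleus the count was 28 of 41 (47.9% of genes). The exceptions with all UMIs were Smc2 (-0.031), Cdca2 (-0.079) and Kifc1 (-0.14). Ube2c had the highest ratio there, 1.04 (40.1 and 16.9 CPM), followed by Ccnb1 at 0.87, while Kif23 was nearly level at 0.080 (142 and 134 CPM). In the intermediate clusters 39 of 41 were higher (51.1% of genes) and 29 by 1.5-fold or more (10.1%), and in the superficial-like clusters 35 of 41 (59.1%) and 13 (8.54%), with 0 lower by 1.5-fold (4.46%). For the superficial-like clusters the count was 23 of 32 members measured once each nucleus weighed equally at 700 UMIs (52% of genes). Both groups hold a cluster that did not pass the marker check (7 and 2), so these counts are descriptions of the pooled nuclei.

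Smooth muscle-like nuclei served as the closest comparison, since in control their mitosis-high share lay near that of basal-like nuclei. There 17 of 41 were higher in DNp63cKO (51.3% of genes) and 24 lower, none by 1.5-fold in either direction (2.84% and 2.75% of 13615 genes), and the median log2 ratio was -0.041. With nuclei at 700 UMIs, 10 of 41 measured members were higher (49.1% of genes). Top2a stood at 166 and 173 CPM, Mki67 at 132 and 153 CPM and Smc4 at 169.6 and 168 CPM. The highest ratios were those of Cdk1 (0.33) and Ccnb1 (0.33) and the lowest those of Anln (-0.39) and Kif11 (-0.39). In fibroblast-like nuclei 21 of 40 measured members were higher (51.7% of genes) and 19 lower, 3 and 2 of them by 1.5-fold (6.42% and 4.98% of genes). Endothelium-like nuclei had 8 of 33 measured members higher (49.4% of genes) and 25 lower, 2 and 9 by 1.5-fold (9.54% and 10.6%), from few UMIs: Ube2c, with the lowest ratio, rested on 8 and 34.

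**Figure D4:**
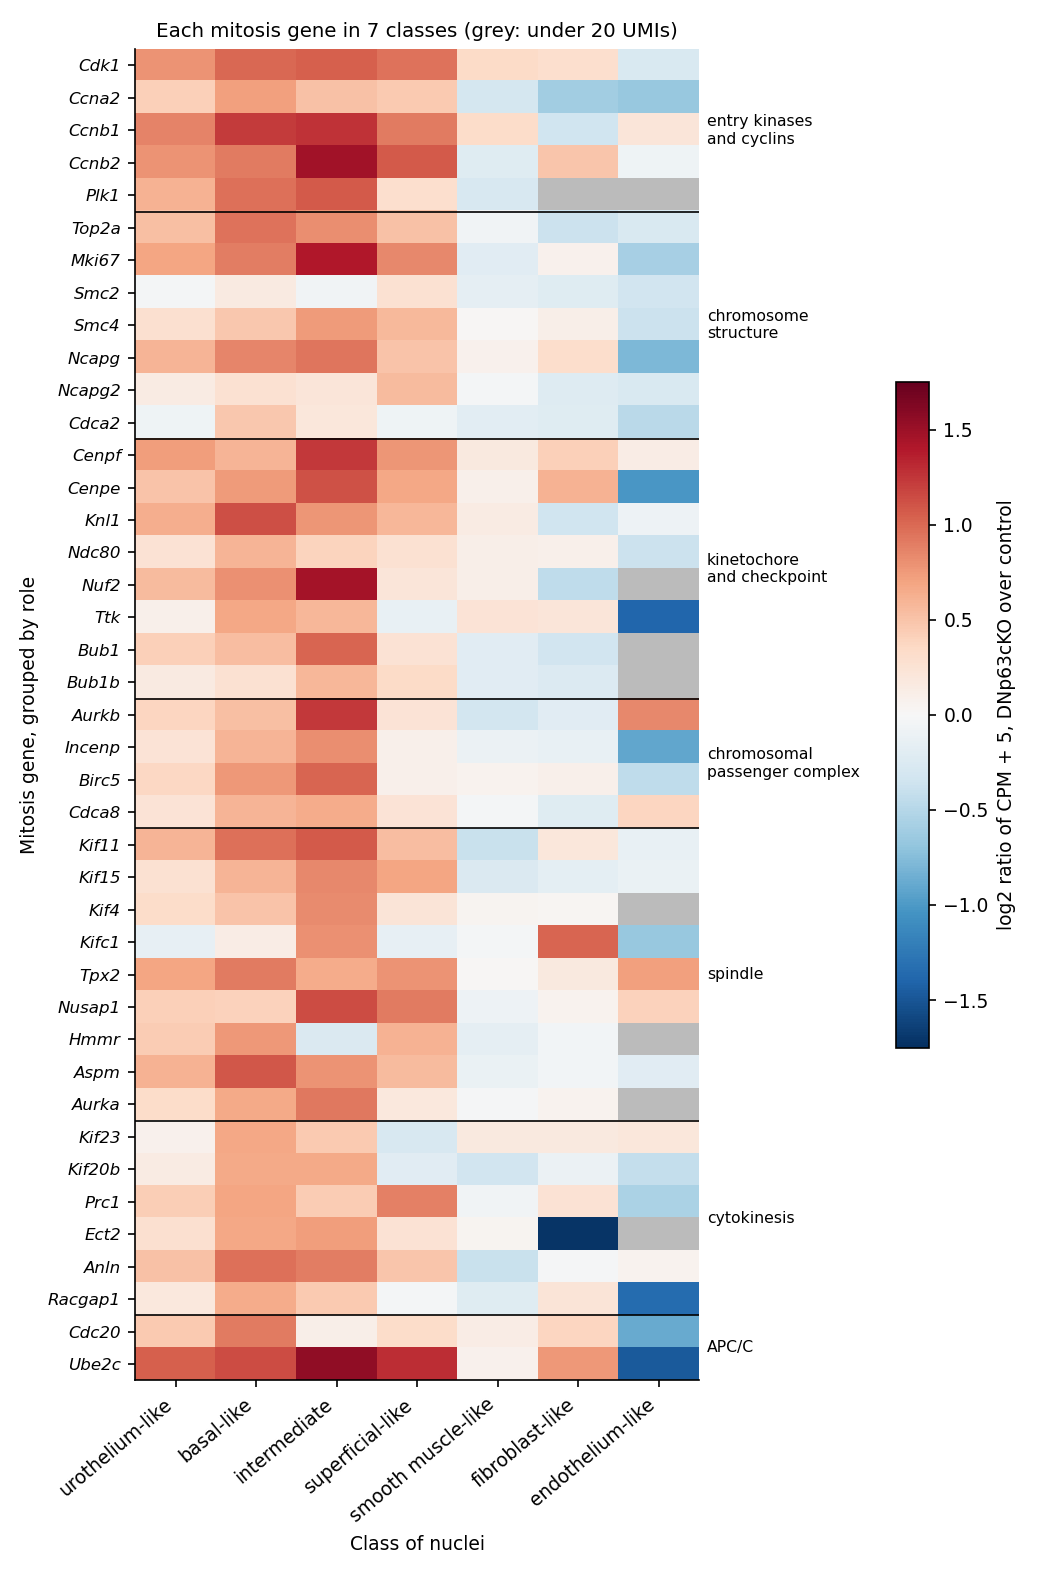
Log2 ratio of CPM + 5, DNp63cKO over control (colour scale, red higher in DNp63cKO), of each of the 41 mitosis genes (rows, grouped by role) in 7 overlapping or separate classes of nuclei (columns), with grey where a gene had under 20 UMIs. The basal-like column is red throughout (0.13 to 1.23) and the smooth muscle-like column pale (-0.39 to 0.33); the pooled urothelium, intermediate and superficial-like columns hold clusters 2 or 7, which did not pass the marker check.

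The members were seen together, as their shared label says. In urothelium-like nuclei with a UMI of a given member, 26.1% (Kif23) to 69.8% (Kifc1) had 3 or more of the other 40, against 8.12 to 11.9% of nuclei without it. The range in smooth muscle-like nuclei was 30.8% (Cdc20) to 62% (Kifc1). Of all UMIs of a member in nuclei at 700 UMIs, between 41.3% (Kif23) and 76.8% (Kifc1) lay in mitosis-high nuclei. Since a member helps to define these nuclei, the values rank members and test nothing. Kif23 was the exception among the 41: it was seen in 9.54% of superficial-like nuclei and 6.68% of basal-like nuclei, the reverse of Top2a (3.53% and 12.2%) and Mki67 (2.63% and 13.1%). Of the 243 superficial-like nuclei with Kif23, 7.82% had 3 or more other members, against 32.5% of the 40 with Cdk1. Smc4 (50.9%) and Cenpf (54.7%) followed Kif23 at the low end, and Aspm (74.4%) and Aurkb (73.7%) followed Kifc1 at the high end.

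**Figure D5:**
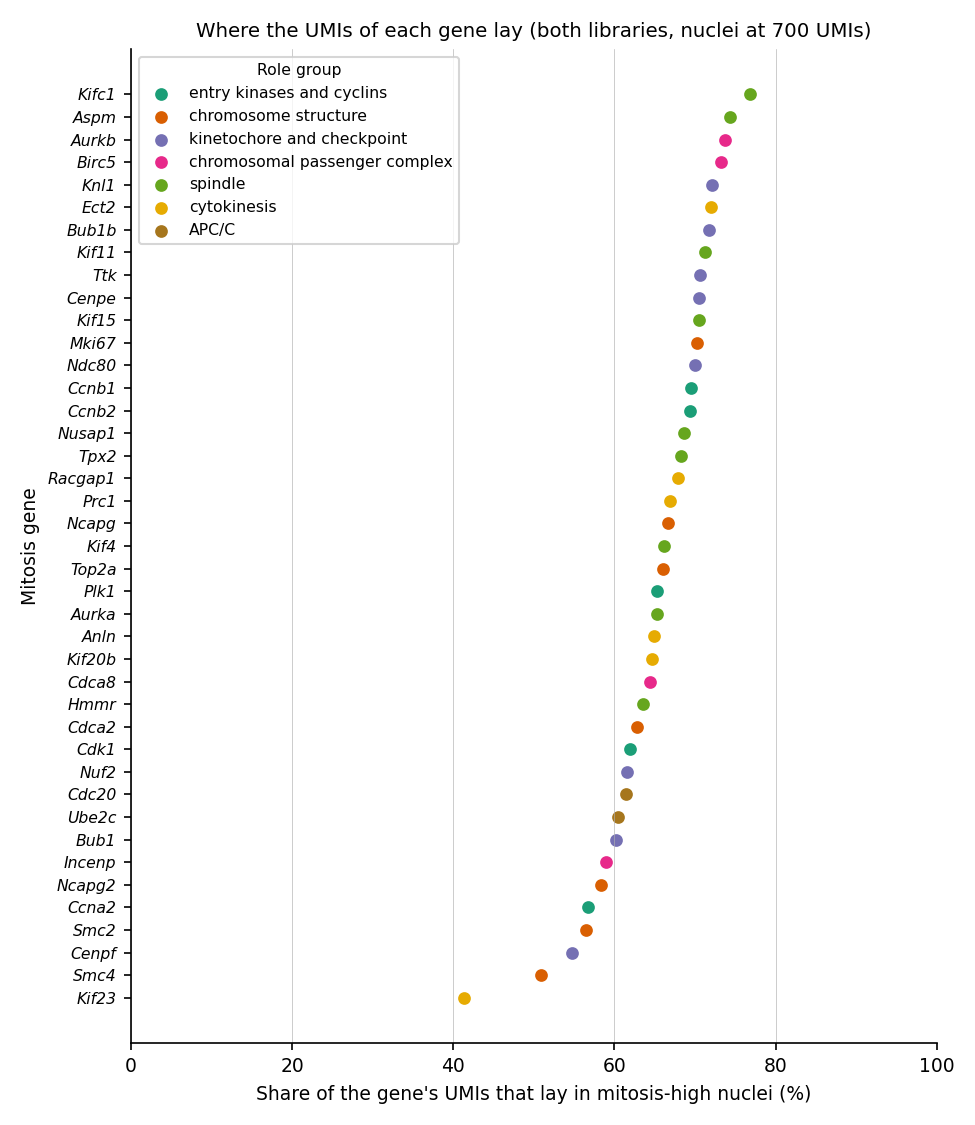
Share of each gene's UMIs that lay in mitosis-high nuclei (horizontal axis, percent, both libraries, nuclei at 700 UMIs) for the 41 mitosis genes (vertical axis), coloured by role group. Values run from 41.3% for Kif23 to 76.8% for Kifc1.

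Mitosis-high nuclei of the urothelium were set beside the other nuclei for genes that did not define them. The 64 other mitosis genes of a separate list summed to 7671 CPM in mitosis-high and 1409 CPM in other urothelium-like nuclei, and 54 DNA replication genes to 5403 and 2096 CPM. The 4 uroplakins summed to 4329.9 and 9146 CPM, and the basal keratin Krt5 stood at 328 and 173 CPM. Within basal-like nuclei the latter 2 were closer: uroplakins at 2948 and 3483 CPM, Krt5 at 581 and 597 CPM. Median UMIs per nucleus of the smooth muscle, fibroblast and endothelium marker lists in mitosis-high urothelium-like nuclei were 1, 1 and 0 in DNp63cKO and 0, 1 and 0 in control, against 9 and 11 UMIs of the smooth muscle list in mitosis-high smooth muscle-like nuclei.

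Outside all lists, genes were ranked by their fold in mitosis-high over other nuclei of the class, as a description, and the leading 10 were taken in urothelium-like, basal-like and smooth muscle-like nuclei. In the urothelium Cdc25c, the phosphatase that activates CDK1, stood at 125 against 4.13 CPM, in DNp63cKO at 114 against 6.42 and in control at 132 against 3.04. Neil3, a DNA glycosylase, was at 372 against 22.2 CPM, and the helicase Pif1 at 110.5 against 3.61 CPM. Next came the noncoding RNA Lockd (109 against 5.68 CPM), cyclin F (Ccnf, 119.7 against 7.48 CPM), Efcab11 (103 against 7.48 CPM) and Kifc5b (136 against 12.6 CPM), the near copy of Kifc1. The histone variant H2ax, Parpbp and the APC/C inhibitor Fbxo5 followed at 191 against 20.9 CPM, 93.9 against 9.55 CPM and 145 against 17.8 CPM. In basal-like nuclei Neil3 and H2ax led, followed by the chromatin protein Hmgb2 (339.9 against 82.7 CPM), Arl6ip1 (852 against 270.2 CPM), Rangap1, the APC/C subunit Cdc27, the tubulin Tuba1c, the linker histone H1f0, the tubulin-binding Stmn1 and the cohesin subunit Rad21. In smooth muscle-like nuclei Neil3 led (354 against 58.2 CPM), followed by the ubiquitin ligase G2e3 (194 against 60.8 CPM) and H2ax (172 against 66.2 CPM).

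The neighbouring lists followed the members in basal-like nuclei, by smaller amounts. Of 64 other mitosis genes 60 were higher in DNp63cKO (48.3% of all genes), 24 by 1.5-fold or more (5.5% of all genes), with a median log2 ratio of 0.49. The 4 with the most UMIs in the urothelium were Ncaph2 of condensin II at 180.4 and 175 CPM (log2 ratio 0.044), the microtubule polymerase Ckap5 at 161 and 122 CPM (log2 ratio 0.38), lamin B1 (Lmnb1) at 195 and 149 CPM (log2 ratio 0.37) and the centromere chaperone Hjurp at 123 and 109 CPM (log2 ratio 0.17). Of 54 DNA replication genes 43 were higher, 7 by 1.5-fold or more, with a median of 0.23. Pcna, the sliding clamp of DNA polymerase, stood at 252 and 193 CPM (log2 ratio 0.38), the helicase subunit Mcm2 at 177 and 156 CPM (log2 ratio 0.18), the maintenance methyltransferase Dnmt1 at 175 and 136 CPM (log2 ratio 0.36) and thymidylate synthase (Tyms) at 151 and 129 CPM (log2 ratio 0.22). In smooth muscle-like nuclei 25 of 64 other mitosis genes and 17 of 54 replication genes were higher (51.3% of all genes), with medians of -0.093 and -0.12.

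Within mitosis-high nuclei the make-up of member UMIs by role was also compared between the libraries. In the urothelium-like class, entry kinases and cyclins gave 15.3% (13.7 to 17.02%) of member UMIs in DNp63cKO and 11.9% (10.8 to 13.1%) in control, and cytokinesis genes 13.2% (11.7 to 14.8%) and 17.4% (16.1 to 18.8%). With Kif23 left out, cytokinesis genes were at 9.49% (8.17 to 10.9%) and 13.2% (12.02 to 14.5%). Chromosome structure genes gave 28.7% (26.7 to 30.8%) and 30.95% (29.3 to 32.6%), and spindle genes 16.3% (14.7 to 18.1%) and 15.6% (14.3 to 16.9%). In basal-like nuclei entry kinases and cyclins were at 15.3% (13.2 to 17.6%) and 13.8% (11.9 to 15.9%) and cytokinesis genes at 13.8% (11.8 to 16.1%) and 15.6% (13.6 to 17.8%), with overlapping intervals. In superficial-like nuclei cytokinesis genes gave 10.47% (7.44 to 14.2%) and 19.2% (14.6 to 24.6%), with intervals apart, and in intermediate nuclei 13.8% (10.8 to 17.4%) and 18.5% (16.6 to 20.4%), with intervals that overlap. With Kif23 left out, the superficial-like values were 6.95% (4.46 to 10.2%) and 11.8% (7.96 to 16.6%), and those intervals overlap. Intervals also overlapped in smooth muscle-like nuclei, at 13.9% (11.95 to 16.1%) and 12.8% (11.3 to 14.6%) for entry kinases and cyclins and, for cytokinesis genes, at 15.9% (13.7 to 18.2%) and 16.9% (15.1 to 18.9%). UMIs of a nucleus are not independent, so these intervals are too narrow.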

How the data were processed

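Single-nucleus libraries were made from pooled frozen ureters in microwells with barcoded beads, per the labels' protocols. The authors deposited raw UMI counts for each gene in each nucleus. Mapping to mm10 is recorded, per the submitters' processing notes, with STARsolo and STAR 2.7.11a beside Seurat 4.0.5 and R 4.0.5. How introns and strands were counted is not given in the sources used here; 32522 of 32589 gene IDs were found in GENCODE M21, which gave coordinates. The members and lists were chosen with earlier results of these data known.

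A nucleus was kept if it had at least 300 genes and no more than 5% mitochondrial UMIs. Scrublet's automatic threshold marked 0 doublets in both libraries and so had not worked, and the top 5% by score were removed (303 and 451 nuclei). Counts were scaled to 10000 per nucleus, and nuclei were clustered with scanpy 1.11.5 (Leiden, resolution 1, 2000 variable genes, 30 principal components, 15 neighbours) without 159 cell cycle genes. A cluster took the class with the highest mean marker fold and at least 4 markers at 50 or more CPM and a 2-fold excess, a rule set after the data were seen.

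For shares and sums, each nucleus was thinned to 700 UMIs with a fixed seed and shallower nuclei were left out. CPM and log2 ratios of CPM + 5 used all UMIs of a class, for genes with 20 or more UMIs. Intervals are Clopper-Pearson, Poisson or conditional binomial (scipy 1.17.1) and cover counting error only. The 12 members with the most UMIs and the leading member of each role group are given in full, up to 4 genes of each other list, and the 10 outside genes with the highest fold and 50 or more UMIs in mitosis-high nuclei, unnamed gene models left out. Scripts were tested on simulated data. Alternatives were other depths, thresholds, filters, clusterings and scalings, subtraction of free RNA, and splits by sex-linked UMIs.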

Additional observations from a re-analysis of the deposited data

Results flagged for a closer look

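The log2 ratio of summed member UMIs, DNp63cKO over control, differed in sign between classes at 700 UMIs. It was 0.60 in basal-like, 0.76 in intermediate and 0.26 in superficial-like nuclei, against -0.23 in smooth muscle-like and -0.41 in endothelium-like nuclei. Signs did not divide epithelial from other nuclei throughout: the ratio was -0.033 (-0.20 to 0.13) in fibroblast-like nuclei, 0.042 in pericyte-like nuclei, and -0.13 and -0.075 in the epithelial clusters 2 and 12. In superficial-like nuclei it turned to -0.44 once free RNA was subtracted. Each class has 1 library per group, so these differences between classes were not tested.

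Opposite signs were also found between nuclei with Y-linked and no Xist UMIs and nuclei with Xist and no Y-linked UMIs. The ratios were -0.36 and 0.45 in the urothelium-like class, -0.34 and 0.76 in basal-like nuclei, -0.48 and 0.47 in superficial-like nuclei, and -0.28 and 0.79 in urothelium-like nuclei with 0 to 4 uroplakin UMIs. In intermediate clusters the signs were the same, 0.29 and 0.89. Gene by gene from all UMIs, the median member log2 ratio with Y-linked UMIs was -0.22 in the urothelium-like class and -0.052 in basal-like nuclei. It was -0.36 with 0 to 4 uroplakin UMIs. In superficial-like nuclei it was 0.12, from 8 measured members, so the negative sign there rests on the thinned sum. Nuclei of the 2 kinds come from the same 2 libraries, and the difference between them was not tested. In nuclei with Y-linked UMIs the direction of the share depended on thinning: unthinned shares with 3 or more members were 46.8% and 40.96% in DNp63cKO and control basal-like nuclei, and 34.8% and 32.7% in those with 0 to 4 uroplakin UMIs.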

How the results depend on the processing

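The direction of the summed log2 ratio held in 12 of 13 alternatives for basal-like nuclei, 11 of 11 for intermediate, 11 of 13 for superficial-like, 12 of 12 for smooth muscle-like, 7 of 12 for fibroblast-like and 12 of 12 for endothelium-like nuclei. Other clusterings and filters also changed which nuclei a layer held. Basal-like nuclei numbered 493 in DNp63cKO and 944 in control as reported, 831 and 2856 with cell cycle genes, and 758 and 2475 without doublet removal. Intermediate nuclei numbered 296 and 2031 as reported, 706 and 1329 at resolution 2, and 123 and 677 without doublet removal. Those alternatives therefore do not examine the same nuclei again. In nuclei with Y-linked and no Xist UMIs the direction turned in urothelium-like, basal-like and superficial-like nuclei, with summed ratios of -0.36, -0.34 and -0.48 and log2 ratios of mitosis-high shares of -0.54, -0.24 and -0.72. It held in intermediate nuclei (0.29 summed, 0.053 for the share) and in the endothelium-like share (-2.30). With Xist and no Y-linked UMIs the summed ratios were 0.45 (urothelium-like), 0.76 (basal-like), 0.47 (superficial-like) and 0.89 (intermediate), and the urothelium-like share 0.59. Subtracting free RNA gave -0.44 in superficial-like, 0.82 in basal-like, 1.02 in intermediate, -0.33 in smooth muscle-like, -0.38 in fibroblast-like and -0.76 in endothelium-like nuclei. From all UMIs as CPM, without thinning, the ratios were 0.46 (urothelium-like), 0.76 (basal-like), 0.91 (intermediate), 0.49 (superficial-like) and -0.066 (smooth muscle-like). Clustering at resolution 2 gave summed ratios of 0.48 (basal-like), 0.38 (intermediate) and 0.11 (superficial-like) and an intermediate share ratio of 0.30. Clustering with cell cycle genes gave 0.81 in basal-like nuclei and no intermediate group. Without doublet removal the summed ratios were 0.28 (intermediate) and 0.44 (superficial-like) and the intermediate share ratio 0.14. The stricter filter gave 0.58 (intermediate), 0.58 (superficial-like) and -0.37 (smooth muscle-like). At 1000 UMIs per nucleus the ratios were 0.38 (urothelium-like) and -0.13 (smooth muscle-like), and at 500 -0.017 (endothelium-like). For the urothelium-like class the summed ratio was 0.34 with another random draw, 0.46 with uroplakin strata and 0.64 with layers weighted as in control, and 0.85 without cluster 2, with a share ratio of 0.997. Superficial-like nuclei without cluster 2 gave 0.54 and basal-like nuclei without cluster 15 gave 0.76. Counts of members higher in DNp63cKO moved in endothelium-like nuclei from 8 of 33 measured to 2 of 8 at 50 or more UMIs, where fewer genes were measured and the share hardly changed, and to 1 of 8 at 700 UMIs per nucleus. At that depth they moved from 17 of 41 to 10 of 41 in smooth muscle-like and from 35 of 41 to 23 of 32 in superficial-like nuclei. The cause of these shifts was not tested. The options without cluster 2, without cluster 15, another draw, uroplakin strata and the expected UMIs over all draws were chosen after seeing the data. No paired analysis was possible because each group has 1 library. With about 1 member UMI per nucleus at 700 UMIs, single nuclei are called on few molecules.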

Other observations

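Among 26 cell cycle regulators, which act mostly before mitosis, Ccnd2 (cyclin D2, which starts the cycle with CDK4 and CDK6) had the most UMIs. In the pooled urothelium-like class it stood at 495 and 1007 CPM (log2 ratio -1.02), and in basal-like nuclei at 1048 and 831 CPM (log2 ratio 0.33). The pooled class includes cluster 2, with 1079 DNp63cKO and 107 control nuclei. Smooth muscle-like nuclei had 169 and 314 CPM (log2 ratio -0.87). Among epithelial genes, Krt5 and Trp63 had log2 ratios of -1.55 and -1.14 in those nuclei, and Krt14, Upk1b and Upk3a had 1.18, 0.30 and 0.20. The part of free RNA in the smooth muscle-like value of Ccnd2 was not tested. Cdkn1a, the CDK inhibitor p21, stood at 183 and 237 CPM (log2 ratio -0.37) in urothelium-like and 132 and 161 CPM (log2 ratio -0.28) in basal-like nuclei. Ccnd3 was at 96.2 and 102 CPM (log2 ratio -0.081) and 75.7 and 121 CPM (log2 ratio -0.64), and Cdk4 at 115 and 103 CPM (log2 ratio 0.15) and 205 and 150.4 CPM (log2 ratio 0.44). Of the 24 regulators measured in basal-like nuclei, 16 were higher in DNp63cKO (48.3% of all genes) and 8 lower (median log2 ratio 0.26). The pooled urothelium-like class had 14 of 24 higher (51% of all genes), and the median there was 0.032.

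The small classes held few mitosis-high nuclei. They were 10 of 50 in DNp63cKO and 8 of 48 in control among pericyte-like nuclei, 7 of 44 in DNp63cKO and 5 of 25 in control among macrophage-like nuclei, 7 of 27 in DNp63cKO and 6 of 23 in control among glia-like nuclei and 5 of 31 in DNp63cKO and 7 of 20 in control among neuron-like nuclei. Nephron-like nuclei had 0 of 24 in DNp63cKO, which allows a share of up to 12.5% (3 counts over 24; the exact interval reaches 14.2%), and 2 of 10 in control.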
